A study of Homo sapiens with 6 samples.

Results

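The keratin genes are the family that encodes the intermediate filament proteins of epithelial cells. They were taken as every protein-coding gene of the deposited tables whose symbol is KRT followed by a number and at most 1 letter, which leaves out the keratin-associated proteins and the keratin pseudogenes. The rule found 55 genes among the 60612 genes of the tables, 29 of type I and 26 of type II. The study sequenced RNA from stable lines labelled HepG2, a widely grown human tumour line of liver origin, and the tissue is given as liver. The 3 libraries labelled ABCF1 carry the genotype ABCF1, and the 3 libraries labelled NC-1 carry the genotype NC-1. The series' design text speaks of overexpressed ABCF1 with lysine-to-arginine changes, while the sample labels give the gene name alone, so which form of ABCF1 the cells carried is not settled by the labels. The promoter, the number of clones behind each line and the meaning of NC-1 have not been given in the sources used here, and no label states whether libraries of the same group were grown as separate cultures. P-values therefore rest on variation among libraries that may be technical in part or in full. ABCF1 itself is an ATP-binding cassette protein without transmembrane segments that is known for a role in starting translation.

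Keratins come in acidic type I and basic to neutral type II chains, and a filament needs 1 chain of each type. Which pair a cell makes follows its kind of epithelium: KRT8 with KRT18 in simple epithelia, hepatocytes included, KRT7 and KRT19 in ducts such as the bile duct, KRT5 with KRT14 in the basal layer of stratified epithelia, KRT1 with KRT10 in the layers above it, and KRT6 chains with KRT16 and KRT17 in wounded or stressed skin. Hepatocytes are known for a filament network of KRT8 and KRT18 alone, and for this reason keratins are widely read in liver tumours.

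The 6 libraries held 62323034 to 77394510 counts and 20356 to 21012 genes with at least 1 count. A count of 3, used as the detection floor, equals 0.0388 to 0.0481 CPM (counts scaled to the library total) in these libraries and covers counting error only. The ABCF1 transcript went against the design text, which speaks of overexpression, while the sample labels state no direction. The libraries labelled ABCF1 had 27.7, 28.6 and 28.0 RPKM (the authors' reads per unit of transcript length and of sequencing depth). The libraries labelled NC-1 had 47.3, 43.3 and 44.4 RPKM. The ABCF1 transcript had a log2 difference, ABCF1 over NC-1, of -0.57 (SE 0.08) with an adjusted p of 0.252 in edgeR's quasi-likelihood test. It was called lower in the libraries labelled ABCF1 by the DESeq2 Wald test (adjusted p of 6.1e-08) and by edgeR with the library set as a covariate (8.93e-04), with a further offset for transcript length and GC content (1.16e-04) and without the 2 libraries that stood apart (0.00824), fits that are described beside the keratin results. Every direction below is therefore that of the labels. The library labelled ABCF1 replicate 3 and the library labelled NC-1 replicate 2 lay far from the remaining 4 along the first principal component (29.6% of the variance). Library by library, deviations from the mean of all libraries also followed transcript GC content across genes, with Spearman's rho of 0.35, 0.50 and 0.37 in the libraries labelled ABCF1 and of -0.44, -0.40 and -0.29 in those labelled NC-1. With transcript length the rho was 0.25, 0.007 and -0.66 in the libraries labelled ABCF1. In those labelled NC-1 it was 0.56, -0.33 and 0.60, so the library apart had the lowest value of each group. The part of GC content, transcript length or the 2 libraries apart in the keratin results was not tested beyond the fits given beside them.

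All 6 libraries had the same 8 keratins at 1 RPKM or more, and 4 of them made up nearly all keratin RNA. In order of mean level these were KRT8 at 759 RPKM, KRT18 at 676 RPKM, KRT17 at 431 RPKM and KRT7 at 141 RPKM, followed by KRT10 at 25.4, KRT80 at 12.6, KRT16 at 6.70 and KRT15 at 3.50 RPKM. The first 4 held 96.2% to 98.0% of the summed keratin RPKM of a library. KRT8 and KRT18, the simple epithelial pair, held 68.7% to 71.4% of it. Keratin genes took 0.376%, 0.380% and 0.461% of all counts in the libraries labelled ABCF1, against 0.350%, 0.406% and 0.355% in those labelled NC-1.

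**Figure D1:**
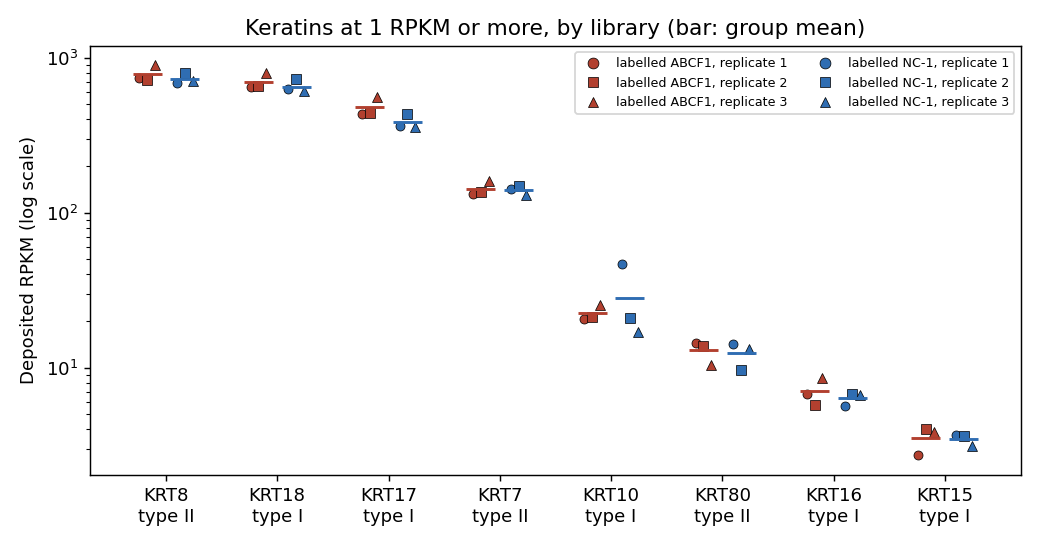
Deposited RPKM (log axis) of the 8 keratins at 1 RPKM or more, in order of mean level, with 1 point per library, the libraries labelled ABCF1 (red) left of those labelled NC-1 (blue), and a bar at each group mean. KRT8 and KRT18 lie between 608 and 893 RPKM, KRT17 lies below them, and KRT10 has 1 library labelled NC-1 at 47.0 RPKM, far above its other values.

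KRT8 (ENSG00000170421, GRCh38 chr12:52897187-52949954, minus strand), the type II chain of simple epithelia, had 746, 721 and 893 RPKM in the libraries labelled ABCF1, against 688, 799 and 708 RPKM in those labelled NC-1. Its partner KRT18 (ENSG00000111057, chr12:52948871-52952906, plus strand), the only type I keratin outside the type I cluster, had 644, 653 and 801 RPKM in the libraries labelled ABCF1, against 625, 726 and 608 RPKM in those labelled NC-1. For both genes the groups overlapped, and the highest library of each group was one of the 2 that stood apart. Their ranges over the 6 libraries also overlapped each other, but KRT8 was above KRT18 in every library and the ratio of KRT18 to KRT8 stayed between 0.859 and 0.908. Both were among the most abundant messages of the cells: among protein-coding genes KRT8 ranked from 67 to 87 and KRT18 from 90 to 100.

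KRT17 (ENSG00000128422, chr17:41619442-41624842, minus strand), a type I keratin of basal cells, skin appendages and wounded epidermis, had 437, 438 and 562 RPKM in the libraries labelled ABCF1, against 361, 432 and 356 RPKM in those labelled NC-1. Every library labelled ABCF1 was above every library labelled NC-1, with the narrowest gap between 437 and 432 RPKM, an order that 10.7% of tested genes had in CPM. Its range lay below that of KRT18 in all 6 libraries, and it ranked from 146 to 180 among protein-coding genes. KRT7 (ENSG00000135480, chr12:52232520-52252186, plus strand), the type II keratin of ducts and glands, had 131, 137 and 159 RPKM in the libraries labelled ABCF1, against 143, 148 and 130 RPKM in those labelled NC-1, so that the groups overlapped throughout. KRT19, the type I keratin that accompanies KRT7 in bile duct cells, had 0, 15 and 23 counts in the libraries labelled ABCF1 and 0 in each library labelled NC-1.

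Of the other 4 keratins at 1 RPKM or more, KRT10, KRT16 and KRT15 belong to stratified epithelia. KRT10 (ENSG00000186395, chr17:40818117-40822614, minus strand), the type I chain of differentiating epidermis, had 20.7, 21.1 and 25.5 RPKM in the libraries labelled ABCF1, against 47.0, 20.9 and 17.1 RPKM in those labelled NC-1. KRT80 (ENSG00000167767), a type II keratin found near cell borders, had 14.5, 13.9 and 10.4 RPKM in the libraries labelled ABCF1, against 14.3, 9.65 and 13.2 RPKM in those labelled NC-1. It was the only 1 of the 8 with its lowest value of each group in the 2 libraries that stood apart. KRT16 (ENSG00000186832), a wound keratin, had 6.74, 5.76 and 8.60 RPKM in the libraries labelled ABCF1, against 5.68, 6.78 and 6.64 RPKM in those labelled NC-1. KRT15 (ENSG00000171346), a keratin of basal and progenitor cells, had 2.73, 3.999 and 3.84 RPKM in the libraries labelled ABCF1, against 3.70, 3.63 and 3.12 RPKM in those labelled NC-1. Over the 6 libraries the ranges of KRT10, KRT80, KRT16 and KRT15 did not overlap each other.

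KRT10 differed between the deposited tables. In counts it had 2901, 3189 and 4325 in the libraries labelled ABCF1, against 3224, 2810 and 2546 in those labelled NC-1, and the high RPKM of NC-1 replicate 1 had no match there. The transcript length that the count and the RPKM together imply was 2195, 2138 and 2190 nt in the libraries labelled ABCF1, against 994, 2156 and 2269 nt in those labelled NC-1. The longest of these was 2.28 times the shortest, against a median of 1.07 times over 11170 genes, of which 0.439% exceeded 2 times. KRT15 had a ratio of 1.34, and the other 6 keratins had ratios up to 1.12. For KRT15 the implied lengths were 2060, 1979 and 1840 nt in the libraries labelled ABCF1. In those labelled NC-1 they were 1676, 1543 and 1743 nt, so that its implied length did not overlap between the labels. The fitted fold changes below use the counts, while sums and ratios of levels use the RPKM. KRT10 also overlaps the noncoding gene TMEM99 on the other strand by 3509 nt, and use of strand in counting is not given in the sources used here.

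Apart from KRT8 with KRT18, the usual pairs were not complete. Of 6 simple epithelial keratins, KRT8, KRT18 and KRT7 were at 1 RPKM or more, KRT19 had counts in 2 libraries only, and KRT20 and KRT23 had no count in any library. Of 5 keratins of stressed or wounded skin, KRT17 and KRT16 were present, whereas their usual type II partners were at or near 0: KRT6A had 4, 7 and 4 counts in the libraries labelled ABCF1 and 0 in each library labelled NC-1, KRT6B had 7 counts in 1 library, and KRT6C had none. Of the basal pair, KRT14 had 0, 61 and 79 counts in the libraries labelled ABCF1, against 0, 20 and 0 in those labelled NC-1, and KRT5 had 4, 53 and 57 counts in the libraries labelled ABCF1, against 4, 0 and 4 in those labelled NC-1. KRT1, the epidermal partner of KRT10, had 12 counts in 1 library and 0 in the other 5. Summed over all chains, type I RNA was above type II RNA in every library, with ratios of RPKM sums of 1.25, 1.29 and 1.32 in the libraries labelled ABCF1, against 1.23, 1.24 and 1.17 in those labelled NC-1. The type I sum was 1112, 1124 and 1403 RPKM in the libraries labelled ABCF1, against 1044, 1190 and 993 RPKM in those labelled NC-1, where the first value includes the 47.0 RPKM of KRT10. The type II sum was 892, 873 and 1064 RPKM in the libraries labelled ABCF1, against 846, 958 and 851 RPKM in those labelled NC-1.

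Of the 55 keratins, 27 had at least 1 count in some library and 28 had 0 in all 6. The 19 with counts but a mean under 1 RPKM had means of 0.0056 to 0.543 RPKM, and none exceeded 95 counts in a library. KRT34, a hair keratin, led them with 0.354 to 0.726 RPKM, followed by the hair keratin KRT86 (0.199 to 0.471 RPKM), KRT9, a keratin of palm and sole skin (0.122 to 0.459 RPKM), KRT14 (0 to 0.585 RPKM) and the hair keratin KRT81 (0.051 to 0.344 RPKM). KRT34 had 44, 60 and 78 counts in the libraries labelled ABCF1, against 69, 85 and 95 in those labelled NC-1. KRT5, KRT14 and KRT19 had their largest counts in the same 2 libraries, ABCF1 replicates 2 and 3. No keratin below 1 RPKM was called between the groups in any fit that tested it, and 13 with counts did not pass the filter in the fit of all 6 libraries.

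**Figure D2:**
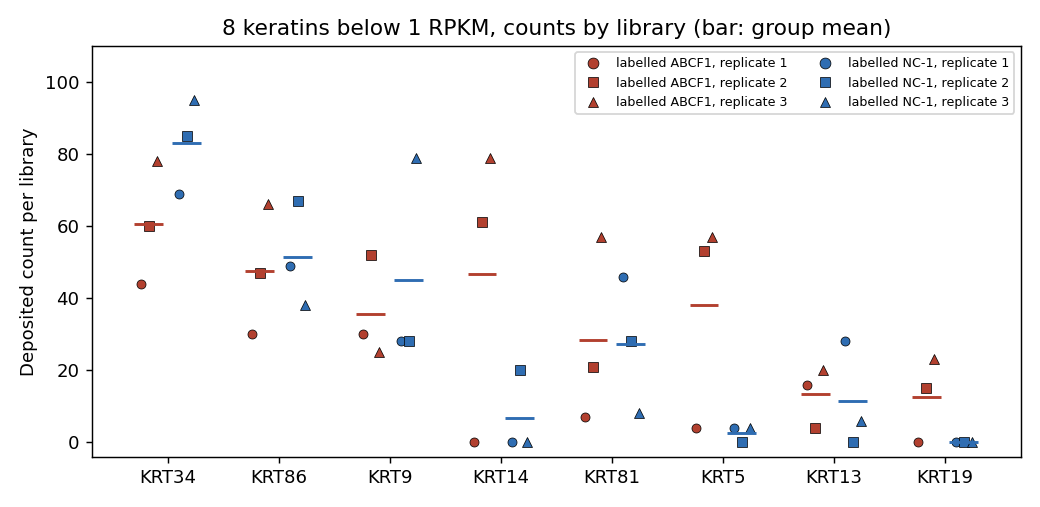
Deposited counts of 8 keratins below 1 RPKM, with 1 point per library, the libraries labelled ABCF1 (red) left of those labelled NC-1 (blue), and a bar at each group mean. The highest point is 95 counts, for KRT34, and KRT5, KRT14 and KRT19 stand near 0 in most libraries and higher in the libraries labelled ABCF1 replicates 2 and 3.

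The rest of the low group was sparser still. KRT13, of non-cornifying stratified epithelium, had 16, 4 and 20 counts in the libraries labelled ABCF1, against 28, 0 and 6 in those labelled NC-1. The other counted members were the hair keratins KRT31, KRT32, KRT33B, KRT36 and KRT83, the root sheath keratins KRT27 and KRT74, and KRT4, each with at most 16 counts in a library. The 28 genes without a count were 9 of 17 hair keratins, 7 of 9 root sheath keratins, 6 of 10 epidermal keratins, both corneal keratins (KRT3 and KRT12), KRT20, KRT23, KRT6C and KRT222. With a count of 0, a level of up to the detection floor of 0.0388 to 0.0481 CPM is allowed.

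Of the 8 keratins at 1 RPKM or more, 6 lay at the ends of the 2 gene clusters. On chromosome 12 the 27 keratin genes, 26 of type II and KRT18, run from chr12:52168996 to chr12:52952906. KRT80 and KRT7 are the first and next of them and KRT8 and KRT18 the last pair. Between KRT7 and KRT8 lie 23 keratin genes, of which 14 had no count and the highest, KRT86, reached 0.471 RPKM. On chromosome 17 the 28 type I genes run from chr17:40654665 to chr17:41624842, with KRT16 and KRT17 in places 27 and 28, KRT10 in place 7 and KRT15 in place 23. The 15 genes between KRT10 and KRT15 reached 0.726 RPKM at most, in KRT34, and 9 of them had no count. These places are a description of the annotation, and no test of position was made.

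**Figure D3:**
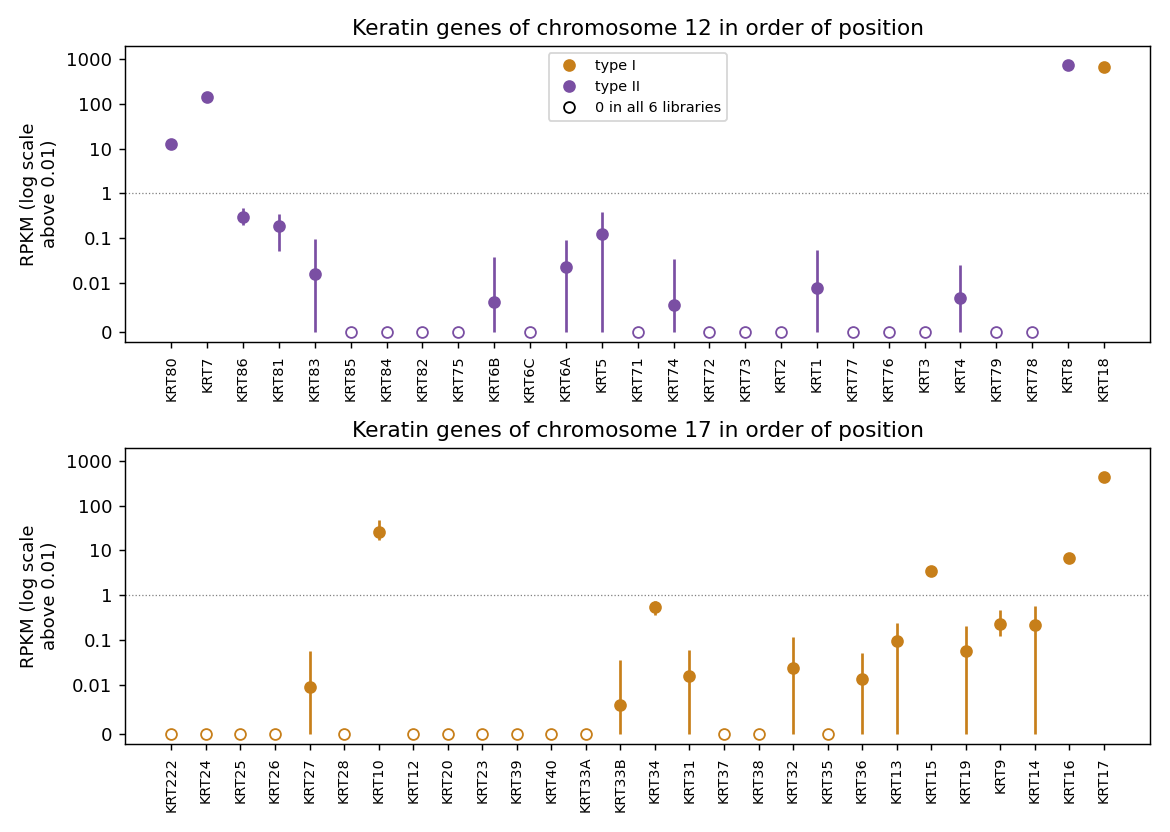
Mean RPKM of each keratin gene on chromosomes 12 (above) and 17 (below) in order of position, on a log axis above 0.01, with a line over the range of the 6 libraries and open circles for genes at 0 in all. The 4 genes above 1 RPKM on chromosome 12 sit at the ends of the row, with 23 genes under 1 RPKM between KRT7 and KRT8.

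Reads of close relatives limit some of these values. KRT17, KRT16 and KRT14 lie in the same stretch of chromosome 17. The coding sequence of KRT17 was 82.0% identical to that of KRT16 over 1270 aligned bases, with a longest identical run of 61 nt. To KRT14 it was 86.6% identical over 1284 bases, with a longest run of 59 nt. The most alike stretch of 120 nt in exon 6 is printed for the 3 genes, from the GRCh38 sequence with GENCODE 29 exons, to show how few bases separate reads of an abundant gene from those of a scarce one. Capitals mark the 9 positions at which the 3 differ, and all 3 lie on the minus strand, 5′ to 3′.
KRT17 (chr17:41620676-41620795): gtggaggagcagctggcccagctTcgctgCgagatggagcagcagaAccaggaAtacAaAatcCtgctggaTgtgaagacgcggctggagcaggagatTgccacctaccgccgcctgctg
KRT16 (chr17:41610348-41610467): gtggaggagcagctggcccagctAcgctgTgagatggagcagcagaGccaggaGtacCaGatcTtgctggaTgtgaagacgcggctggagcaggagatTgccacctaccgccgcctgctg
KRT14 (chr17:41583252-41583371): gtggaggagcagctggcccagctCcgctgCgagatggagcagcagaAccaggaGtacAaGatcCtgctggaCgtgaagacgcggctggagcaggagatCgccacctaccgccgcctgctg
KRT16 has 7 mismatches with KRT17 in this stretch and KRT14 has 5. Since KRT17 stood at 356 to 562 RPKM, KRT16 at 5.68 to 8.60 RPKM and KRT14 at 0 to 0.585 RPKM, the values of KRT16 and KRT14 are uncertain to the extent that KRT17 reads were assigned to them. That extent was not tested. KRT8 and KRT18 have many processed copies in the genome, 51 and 67 annotated pseudogenes in the tables. The KRT8 pseudogenes together held 0.348% to 0.488% of the KRT8 count, and those of KRT18 held 0.0619% to 0.132% of the KRT18 count. KRT8 and KRT18 overlap by 1084 nt on opposite strands, and KRT86 overlaps KRT7 by 2887 nt on the same strand, so the 30 to 67 counts of KRT86 are also uncertain.

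The keratin profile was set against marker genes of the tissue and of other epithelia. Of 13 hepatocyte markers, KRT8, KRT18 and HNF4A, a transcription factor of liver and gut (15.0 to 31.2 RPKM), were at 1 RPKM or more. The secreted products that define hepatocytes were at or near 0: albumin (ALB) reached 0.179 RPKM, alpha-fetoprotein (AFP) 0.157 RPKM, transthyretin (TTR) 0.132 RPKM and SERPINA1 0.101 RPKM in any library. These markers of the labelled tissue were thus absent or nearly so in all 6 libraries. The 13 hepatocyte markers summed to 1395 to 1713 RPKM in the libraries labelled ABCF1 and 1334 to 1540 RPKM in those labelled NC-1, nearly all of it KRT8 and KRT18.

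Other epithelial lists were also met in part. Among bile duct markers, KRT7, the transcription factor SOX9 (10.04 to 13.4 RPKM) and the adhesion protein EPCAM (4.96 to 8.21 RPKM) were at 1 RPKM or more, while KRT19 had counts in 2 libraries only. Of 9 basal or squamous markers, KRT17, KRT16, KRT15 and SFN, a cell cycle regulator of the 14-3-3 family (142 to 226 RPKM), were at 1 RPKM or more, while TP63, the master regulator of basal cells, reached 0.113 RPKM and DSG3, a desmosomal cadherin of basal cells, was at 0. This list summed to 609 to 802 RPKM in the libraries labelled ABCF1 and 508 to 632 RPKM in those labelled NC-1, most of it KRT17. Of 7 simple epithelial markers, CLDN7, a tight junction protein, had 47.3 to 66.3 RPKM, whereas CDH1, the epithelial cadherin, reached 0.080 RPKM and ESRP1 and GRHL2, regulators of the epithelial state, were at 0. This list summed to 1436 to 1767 RPKM in the libraries labelled ABCF1 and 1369 to 1590 RPKM in those labelled NC-1. Nearly all of it was KRT8 and KRT18, so the sum adds little to the keratin levels themselves. VIM, the intermediate filament protein of mesenchymal cells and of many cultured lines, stood at 767 to 842 RPKM, within the range of KRT8. Of 7 mesenchymal markers, VIM included, 4 were at 1 RPKM or more on average. Of 4 blood markers 1 was at 1 RPKM or more on average, and of 4 intestinal and 6 hair shaft markers 0 were. No marker list was met in full. Whether the cells match the line and tissue of their label was not tested, and no other cell type is given to them here. Whether RNA of more than 1 cell type was present cannot be read from bulk libraries, in which fewer cells of a type and less RNA per cell cannot be told apart.

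Between the groups, no keratin passed the test when all 6 libraries were fitted without a covariate. edgeR's quasi-likelihood test on the counts called 0 of 16545 genes at an adjusted p under 0.05 (0.0% in either direction), with 2450 genes (14.8%) at an unadjusted p under 0.05. Of the 55 keratins 14 passed the filter on low counts, and 1 of these, KRT17, had an unadjusted p under 0.05. No gene was called by limma-voom. DESeq2's Wald test called 626 genes (3.78%), 1.47% higher and 2.31% lower, with no keratin among them. All 8 keratins at 1 RPKM or more had positive log2 fold changes in counts under each of the 4 scalings tried, with a median of 0.23 under TMM, where all tested genes had a median of 0.00 and 50.1% positive values. The median of the 8 was 0.13 with library size only, where that of all tested genes was -0.10, and 0.11 under TMM without ABCF1 replicate 3. The 8 were measured in the same libraries, so their signs are not independent. Their transcripts had a median GC content of 56.6%, against 49.2% over tested genes, and a median length of 2106 nt, against 3175 nt.

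KRT17 had the largest log2 fold change of the 8 in the fit of all 6 libraries without a covariate. KRT15 exceeded it with the library set and the length and GC offset (0.27 for KRT15, 0.21 for KRT17), without ABCF1 replicate 3 (0.32 for KRT15 and 0.29 for KRT80, 0.27 for KRT17) and without NC-1 replicate 1 (0.42 for KRT15, 0.37 for KRT17). These fits use counts, and in RPKM KRT15 averaged 3.52 in the libraries labelled ABCF1 and 3.49 in those labelled NC-1. In TMM-scaled CPM KRT17 had 746, 763 and 1024 in the libraries labelled ABCF1, against 577, 720 and 586 in those labelled NC-1. Under this scaling the libraries labelled ABCF1 lay above those labelled NC-1 without overlap, a pattern that 10.7% of tested genes had in that direction. Per library total the KRT17 groups overlapped. There NC-1 replicate 2 (45834 of 62323034 counts) lay above ABCF1 replicate 1 (46908 of 63906472 counts). The means were 845 ± 156 CPM in the libraries labelled ABCF1 and 628 ± 80.1 CPM in those labelled NC-1 (SD, n = 3 each), a log2 fold change of 0.43 (SE 0.15) with an edgeR adjusted p of 0.28. KRT10 was the other keratin of the 14 whose groups did not overlap in TMM-scaled CPM. It had 46.1, 46.2 and 59.7 CPM in the libraries labelled ABCF1, against 45.03, 44.1 and 37.0 CPM in those labelled NC-1. Per library total the KRT10 groups overlapped as well. There NC-1 replicate 1 (3224 of 69097005 counts) lay above ABCF1 replicate 1 (2901 of 63906472 counts). The log2 fold change of KRT10 in counts was 0.27 (SE 0.14, edgeR adjusted p of 0.395). In RPKM its sign was the opposite, -0.19, with NC-1 replicate 1 at 47.0 RPKM. No keratin had all libraries labelled ABCF1 below all those labelled NC-1, where 12.4% of tested genes did.

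None of the remaining keratins passed the test in this fit. KRT8 averaged 1864 ± 246 CPM in the libraries labelled ABCF1 and 1632 ± 137 CPM in those labelled NC-1 (SD, n = 3 each), a log2 fold change of 0.19 (SE 0.11). KRT18 averaged 1137 ± 179 CPM in the libraries labelled ABCF1 and 992 ± 113 CPM in those labelled NC-1, a log2 fold change of 0.20 (SE 0.13). KRT7 averaged 237 ± 33.8 CPM in the libraries labelled ABCF1 and 216 ± 16.1 CPM in those labelled NC-1, a log2 fold change of 0.14 (SE 0.12). KRT80, KRT16 and KRT15 had log2 fold changes of 0.17, 0.26 and 0.36. The edgeR adjusted p of these 6 ranged from 0.367 to 0.652. Among the low keratins that were tested, KRT34 had a log2 fold change of -0.47 (SE 0.31) and KRT14 one of 2.67 (SE 1.71), which rests on 61 and 79 counts in 2 libraries labelled ABCF1 and 20 in 1 labelled NC-1. Their edgeR adjusted p was 0.499 for KRT34 and 0.491 for KRT14. Single libraries moved several of these values by more than 1.5 times. Without the library labelled ABCF1 replicate 3 the log2 fold change was smaller for KRT17 (0.27), KRT10 (0.14), KRT8 (0.08), KRT18 (0.07), KRT7 (0.02) and KRT16 (0.05), and larger for KRT80 (0.29). KRT80 stood at 0.10 without ABCF1 replicate 1, at 0.26 without NC-1 replicate 1 and at 0.03 without NC-1 replicate 2. KRT16 stood at 0.17 without NC-1 replicate 1, and KRT14 at 8.51 without NC-1 replicate 2, the only library labelled NC-1 with KRT14 counts.

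In TMM-scaled CPM, each library that stood apart was above the mean of the other 2 of its group for 6 of the 8 keratins at 1 RPKM or more. KRT80 and KRT15 were the exceptions. For KRT10, NC-1 replicate 2 (44.1 CPM) was above that mean but below NC-1 replicate 1 (45.03 CPM). The share of all genes with this pattern was not computed, and the libraries were set apart by these same expression values. KRT80 and KRT15 had the longest annotated transcripts of the 8 (3894 nt for KRT80, 5237 nt for KRT15). For KRT15, counts and RPKM together implied only 1543 to 2060 nt. The part of transcript length in this pattern was not tested. KRT17 was higher by 0.44 on the log2 scale in the library apart than in the other 2 among the libraries labelled ABCF1, and by 0.31 among those labelled NC-1. KRT18 was higher by 0.38 among the libraries labelled ABCF1 and by 0.28 among those labelled NC-1, whereas KRT80 differed by -0.36 among the libraries labelled ABCF1 and by -0.46 among those labelled NC-1. Within the 4 other libraries the log2 difference between the labels was 0.38 for KRT17, 0.16 for KRT18, 0.15 for KRT8 and 0.08 for KRT7. Between the 2 libraries apart it was 0.51 for KRT17, 0.26 for KRT18, 0.26 for KRT8 and 0.24 for KRT7. These differences are in TMM-scaled CPM, where the sign was positive within both sets for all 4 of these genes. The set apart has only 1 library per label. Per library total, KRT7 overlapped between the labels within the 4 other libraries. There NC-1 replicate 3 (14329 of 65719892 counts) lay above ABCF1 replicate 2 (15117 of 70611444 counts). The share of all genes with a positive sign in both sets was not computed.

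With the library set as a covariate, edgeR called 5 keratins higher in the libraries labelled ABCF1 and 0 lower, in a fit that called 25.3% of tested genes, 12.9% higher and 12.5% lower. KRT17 rose by 0.42 (SE 0.04, adjusted p of 9.11e-04), KRT8 by 0.19 (SE 0.04, adjusted p of 0.00571), KRT18 by 0.19 (SE 0.04, adjusted p of 0.00677), KRT80 by 0.17 (SE 0.05, adjusted p of 0.037) and KRT10 by 0.26 (SE 0.08, adjusted p of 0.0428) in this fit. Without the 2 libraries apart, 3 keratins were called higher, KRT17, KRT8 and KRT18, and 0 lower, where 10.8% of genes were called, 5.68% higher and 5.1% lower. With the library set and an offset for each library's trend with transcript length and GC content, KRT17 alone was called, at 0.21 (SE 0.03, adjusted p of 0.00608), where 5.71% of genes were called, 3.78% higher and 1.93% lower. In that fit KRT8 stood at 0.04, KRT18 at 0.02 and KRT7 at -0.10, and the median of the 8 was 0.05. The library set and the offset were both drawn from these same libraries and not from the labels, so the p-values of these fits may be too small. The GC trend had opposite signs under the labels, so the offset cannot be told apart from a difference that goes with the label. The log2 fold change of KRT17 ranged over 19 alternatives from 0.21 to 0.54, with adjusted p from 9.11e-04 to 0.618.

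**Figure D4:**
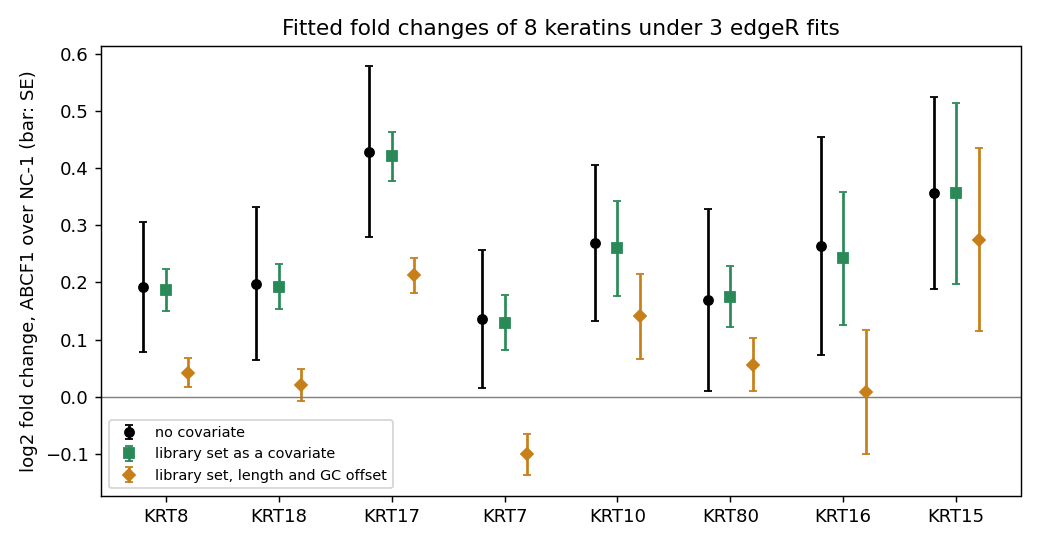
Fitted log2 fold changes, libraries labelled ABCF1 over those labelled NC-1, of the 8 keratins at 1 RPKM or more under 3 edgeR fits, with bars of 1 SE: no covariate (black), library set as a covariate (green), and library set with an offset for transcript length and GC content (orange). All 8 points of the first 2 fits lie above 0, and with the offset KRT17 is at 0.21, KRT8 and KRT18 lie near 0 and KRT7 is at -0.10.

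The ratio of KRT17 to KRT18, both type I chains measured in the same library, did not overlap between the labels. It was 0.678, 0.670 and 0.702 in the libraries labelled ABCF1, against 0.578, 0.595 and 0.585 in those labelled NC-1, or 0.683 ± 0.0166 in the libraries labelled ABCF1 and 0.586 ± 0.00843 in those labelled NC-1 (SD, n = 3 each). The 2 libraries apart were the highest of each group but did not overlap the other label. The ratio was chosen after its values were seen and is given without a test. A ratio within a library shows unequal change of its 2 genes and not which of them changed.

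**Figure D5:**
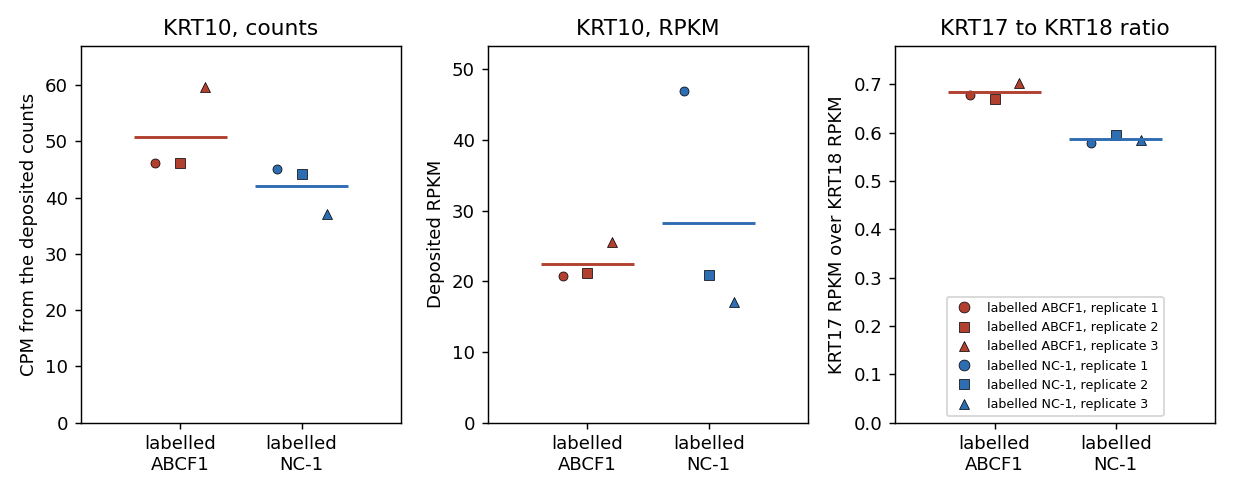
KRT10 in CPM from the counts (left), KRT10 in deposited RPKM (middle) and the ratio of KRT17 RPKM to KRT18 RPKM (right), with 1 point per library, libraries labelled ABCF1 left of those labelled NC-1, and a bar at each group mean. KRT10 of NC-1 replicate 1 is at 47.0 RPKM but at 45.03 CPM, within the range of the others, and the ratio lies at 0.670 or more in the libraries labelled ABCF1 and at 0.595 or less in those labelled NC-1.

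Genes whose products hold or accompany keratin filaments were read in the same fits, and none of the 3 lists had a called member when all 6 libraries were fitted without a covariate. Desmosomes anchor keratin filaments at cell contacts through plakin proteins. Of 22 desmosome and plakin genes 19 were tested, 4 with positive fold changes, and their median log2 fold change was -0.11, beside 0.00 over all tested genes. Without ABCF1 replicate 3 the list had 8 positive values and a median of -0.05, and with the library set and the length and GC offset 7 positive values and a median of -0.03. The most abundant was JUP (plakoglobin, which links desmosomal cadherins to plakins), with 265, 258 and 219 RPKM in the libraries labelled ABCF1, against 244, 207 and 238 RPKM in those labelled NC-1, and a log2 fold change in counts of 0.21 (SE 0.09). PERP, a membrane protein of desmosomes, ranged from 83.0 to 116 RPKM with -0.08 (SE 0.14), and PKP3, an armadillo protein of the desmosomal plaque, from 59.8 to 69.6 RPKM with 0.23 (SE 0.09). The edgeR adjusted p of these 3 was 0.321, 0.823 and 0.309. Once the library set was a covariate, 3 of the 19 members were called higher and 5 lower, where 12.9% of all tested genes were called higher and 12.5% lower. The 4 with the smallest p were ITGB4, the hemidesmosomal integrin chain (0.30), DST, a plakin (-0.52), JUP (0.21) and MACF1, a cytoskeletal linker (-0.26). With the length and GC offset added, ITGB4 was the 1 member called, at 0.19 (adjusted p of 0.0161), where 5.71% of genes were called. Without the 2 libraries apart 2 members were called higher and 2 lower, where 10.8% of genes were called.

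Of 16 other intermediate filament genes, which build filaments of other cell types or the nuclear lamina, 11 were tested, 6 with positive fold changes, with a median of 0.02. VIM had 797, 806 and 842 RPKM in the libraries labelled ABCF1, against 799, 770 and 767 RPKM in those labelled NC-1, with a log2 fold change in counts of 0.17 (SE 0.08). LMNA, the A-type lamin, had 371, 309 and 409 RPKM in the libraries labelled ABCF1, against 313, 329 and 315 RPKM in those labelled NC-1, with 0.26 (SE 0.10). LMNB1, a B-type lamin, had 38.9, 37.0 and 30.4 RPKM in the libraries labelled ABCF1, against 45.6, 43.1 and 45.4 RPKM in those labelled NC-1, with -0.22 (SE 0.09). Their edgeR adjusted p was 0.369 for VIM, 0.313 for LMNA and 0.315 for LMNB1. With the library set as a covariate VIM, LMNA and DES (desmin) were called higher and LMNB1 and SYNM (synemin) lower, 5 of 11 members where 25.3% of all tested genes were called. With the offset added, VIM at 0.17 was called higher and LMNB1 at -0.28 and SYNM at -0.25 lower, where 5.71% of genes were called. Without the 2 libraries apart 1 of the 11 members was called higher and 0 lower, where 5.68% of genes were called higher and 5.1% lower.

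The envelope that cornified cells build around a keratin core was almost silent. Of 18 matched genes 6 had any count, and 2 were at 1 RPKM or more on average. CNFN, a small protein of that envelope, ranged from 2.25 to 6.45 RPKM, and TGM1, the transglutaminase that cross-links it, from 0.760 to 1.26 RPKM. SBSN reached 0.141 RPKM. Involucrin (IVL) and filaggrin (FLG) had no count. Neither tested member was called in any of the fits with the library set.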

How the data were processed

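RNA was extracted with Trizol and libraries were made from 1 µg of total RNA with an Illumina TruSeq kit, per the labels' protocols. The authors deposited whole-number gene counts without normalization and, for the same genes and libraries, RPKM values. The submitters' processing notes name CASAVA 1.8, Trimmomatic and FastQC, HISAT2, StringTie, and edgeR, on the build GRCh38, with no role for any. Neither the annotation release nor the strand setting is given in the sources used here.

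The test was edgeR's two-sided quasi-likelihood F test (version 4.0.16, R 4.3.3) on counts with TMM factors and filterByExpr. P-values of the 16545 genes kept were adjusted by Benjamini-Hochberg, a call being an adjusted p under 0.05, and the SE is the log2 fold change over the square root of F. CPM are counts per TMM-scaled library size, except in the detection floor, which used library totals. Alternatives used DESeq2 1.42.0, limma 3.58.1 (RPKM plus 1 or 0.1) and, for length and GC offsets from GENCODE 29, mgcv 1.9.3. Scripts were tested on simulated data. No libraries of a group agreed within sampling noise (chi-square per degree of freedom of 11.4 or more). Keratins at a mean of 1 RPKM or more are named with every value, the next 5 with ranges, and from each partner list the called members up to 4, or else the 3 most abundant. Members and lists were chosen with earlier results of these data known. The result of 1 marker gene, and the summed level that needs it, are not reported here.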

Additional observations from a re-analysis of the deposited data

How the results depend on the processing

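Of 20 alternatives, 17 called 0 keratins and 0 partner genes and 16 called 0 genes, among them limma-voom, limma-trend on RPKM, other scalings, other filters and an adjusted p under 0.01. The replicate number as a block called 0 genes. The numbers did not pair the libraries: same-numbered libraries had deviation correlations of 0.11, -0.11 and -0.15, and 2 of 6 libraries correlated best with their own number. Leaving out each library in turn gave 0 to 0 calls for genes, keratins and partner genes. The DESeq2 Wald test called 626 genes, 243 higher and 383 lower, and no keratin or partner gene. With the library set as a covariate 4193 genes (25.3%), 5 of 14 tested keratins and 13 partner genes were called. In each of these fits the 3 partner lists had 19, 11 and 2 tested members. Without the 2 libraries apart the counts were 1803 genes (10.8%), 3 of 13 tested keratins and 5 partner genes. With the library set and the length and GC offset they were 934 genes (5.71%), 1 of 14 tested keratins and 4 partner genes. The cause of these differences was not tested.

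Reversed values were KRT7 at -0.10 with the offset (adjusted p of 0.144), KRT10 at -0.19 and -0.20 on log2(RPKM + 1) and log2(RPKM + 0.1) (limma adjusted p of 0.832 and 0.827), and KRT15 at -0.000609 on log2(RPKM + 0.1) (limma adjusted p of 1.0). The KRT10 reversal comes with the implied length of NC-1 replicate 1. That of KRT15 comes with implied lengths of 1840 to 2060 nt in the libraries labelled ABCF1 and 1543 to 1743 nt in those labelled NC-1. The cause of these reversals was not tested. The share of KRT8 and KRT18 in keratin RPKM, 69.8% on average, was 69.5% to 70.0% when each library was left out and 66.2% in counts per kilobase of the longest transcript, an alternative added after seeing the data. The 13 counted keratins that did not pass the filter have no test in the fit of all 6 libraries.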
